A study of Arabidopsis thaliana with 12 samples.

Results

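The 10 genes described here set when Arabidopsis thaliana changes from making leaves to making flowers. They were chosen by gene ID from 24775 genes listed in the 9 RNA-seq libraries used. The study asked how loss of DNA methylation affects histone marks and transcription, and grew mutants of the Columbia accession in long days. RNA was sequenced in 3 libraries for each of 3 groups: 5-week Col-0 wild type, 5-week ddcc (drm1 drm2 cmt2 cmt3, which lacks the methyltransferases for non-CG sites), both labelled as mature leaves, and 2-week met1-3 (which lacks the maintenance methyltransferase for CG sites), labelled as young shoots. By the study's methods the tissue was the aerial part, with the inflorescence removed at 5 weeks, so the leaf samples may hold the shoot apex. The 3 libraries labelled as met1-3 mature leaves were left out, because in each of them 22607 of 22607 shared genes had the same reads as the Col-0 library of the same number. The labels do not say whether the libraries of a group came from separate plants, so the p-values measure the spread between these libraries, which may be technical.

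In long days the leaf clock and light receptors let the CO protein build up at dusk, and CO switches on FT in the phloem companion cells of the leaf. The FT protein (florigen) and its close relative TSF travel to the shoot apex, where with the bZIP factor FD they activate the MADS genes SOC1, FUL and AP1, and LFY with AP1 then commits the apex to flowers. In parallel, the microRNA miR156 holds back the SPL transcription factors in young plants, and its decline with age releases SPL3, SPL4 and SPL9, which feed into the same integrators. SPL9 also promotes miR172, which acts against AP2-like repressors of flowering.

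The IDs and positions below are from RefSeq on TAIR10.1, the build used here for sequence, and the submitters' notes name TAIR10. The florigen genes are FT (AT1G65480, chr1:24331373-24333999, plus strand) and TSF (AT4G20370, chr4:11000771-11003010, minus strand). Their activator CO is AT5G15840 (chr5:5170162-5173085, minus strand). The MADS integrators are SOC1 (AT2G45660, chr2:18807505-18811125, minus strand) and FUL (AT5G60910, chr5:24502434-24506269, minus strand). The floral meristem identity genes are AP1 (AT1G69120, chr1:25982294-25986349, minus strand) and LFY (AT5G61850, chr5:24844248-24846989, plus strand). The SPL genes are SPL3 (AT2G33810, chr2:14305001-14306072, plus strand), SPL4 (AT1G53160, chr1:19806263-19807705, plus strand) and SPL9 (AT2G42200, chr2:17587169-17589671, plus strand).

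What SPL3, SPL4 and SPL9 share, and the 7 other genes lack at the same limit of 3 unpaired bases, is a sequence match to miR156. The mature strand of MIR156a, read from the genome, is shown first with its seed (bases 2 to 8) in capitals, followed by the site of each SPL gene on the transcript strand, in DNA letters, with the bases counted as unpaired in capitals. G:U pairs are counted as unpaired here and below.
miR156a-5p: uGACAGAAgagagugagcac
SPL3: TtgctTactctcttctgtca
SPL4: CtgctcTctctcttctgtca
SPL9: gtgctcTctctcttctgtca
The site of SPL9 lay in the coding sequence (chr2:17589066-17589085) with 1 unpaired base, and those of SPL3 (chr2:14305878-14305897) and SPL4 (chr1:19807090-19807109) lay in the 3′ UTR with 2. In all 3 sites the stretch facing the seed was paired in full. Of 27562 genes whose longest coding transcript was searched for a match to MIR156a-5p with at most 3 unpaired bases, 12 held one (0.0435%), 11 of them in the SPL family. The annotation also places MIR156i and MIR156j on the opposite strand at exactly the SPL4 and SPL9 sites, and neither is listed in the files.

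Values below are normalised reads, the recovered read number of a library divided by its size factor. The 9 libraries held 10105057 to 13989374 reads on genes, of which 56.7% to 65.8% fell on plastid genes (57.8% to 59.6% in Col-0 and 64.4% to 65.8% in ddcc) and 3938275 to 5310477 on nuclear genes. A gene with no read in a library could still have had up to 3 reads there by counting error alone, 0.565 to 0.762 on the scale of reads per 1000000 nuclear gene reads (nuclear RPM, used for levels across groups, and nuclear RPKM when divided by transcript length in kb). In ddcc against Col-0, a gene counted as called when its adjusted p was under 0.01 and its log2 fold change over 1 in size, and a second, wider rule asked only for an adjusted p under 0.05. In bulk tissue, fewer cells of a type and less RNA per cell cannot be told apart.

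None of the genes with enough reads for a test was called between ddcc and Col-0, and the 2 that passed the wider rule moved in opposite directions, SOC1 up and FUL down. Of the 10 genes, 7 had enough reads for limma and 3 (AP1, LFY and SPL9) did not. With limma 0 of 7 were called in either direction, where 3.90% of 17005 tested genes were called higher and 1.16% lower. At an unadjusted p under 0.05 there were 5 (SOC1, FUL, TSF, SPL4 and CO), beside 6144 of all 17005 tested genes, and limma-voom also called 0. By the wider rule 1 of 7 was higher and 1 lower, beside 13.0% and 8.32% of all tested genes. All ddcc libraries lay above all Col-0 libraries for 1 tested gene (SOC1), beside 21.1% of all tested genes, and below them for 3 (FUL, TSF and CO), beside 19.4%. The median log2 fold change of the 7 was 0.11 and that of all tested genes -0.03. With total reads as the only scaling, the median of all tested genes moved to -0.35 and the split of calls from 663 higher and 198 lower to 440 higher and 787 lower, so that fold changes on that scale sit about that much lower. On that scale 6.97% of all tested genes were higher and 37% lower by the wider rule.

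**Figure D1:**
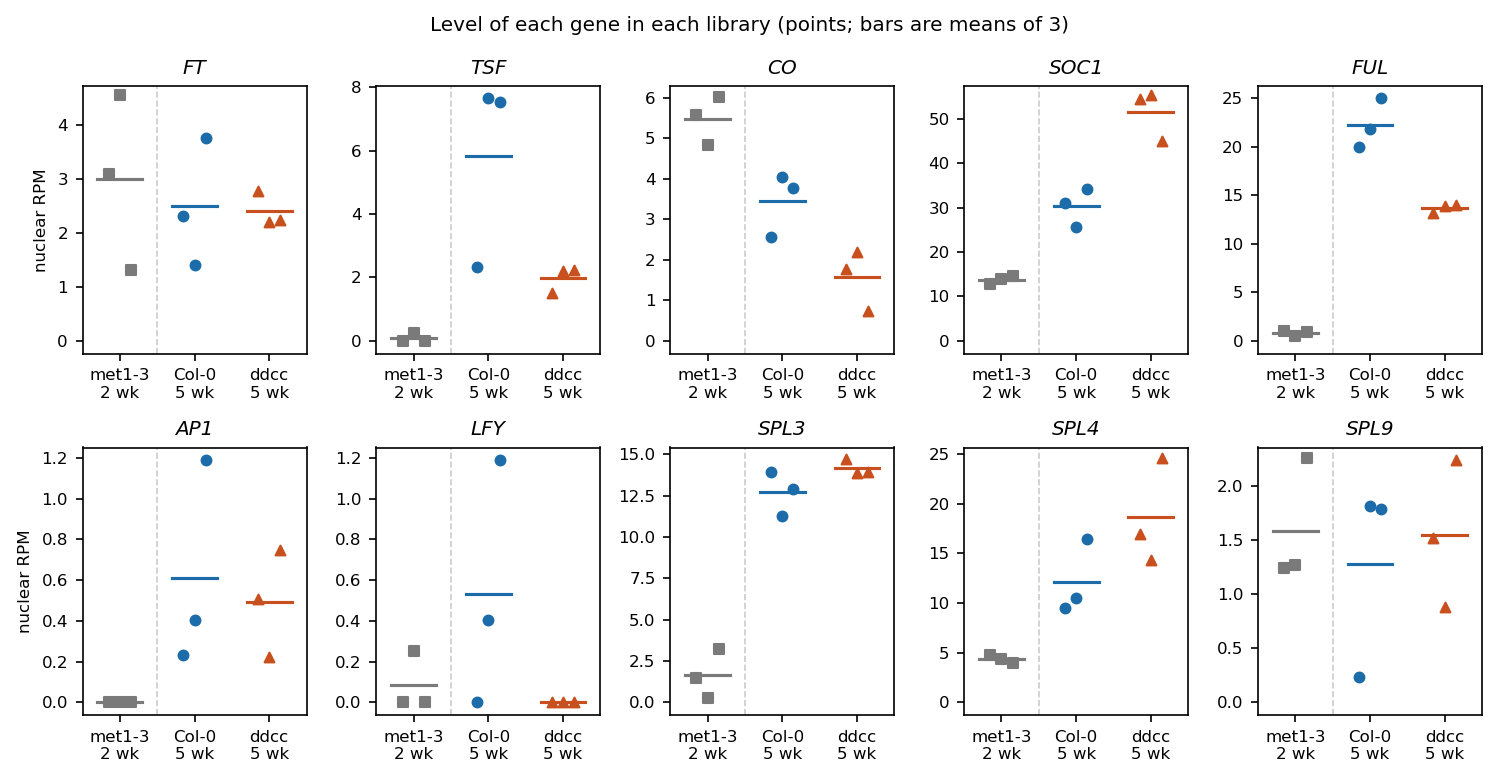
Nuclear RPM (y axis, own scale per panel) of the 10 genes in each library, for 2-week met1-3 (squares), 5-week Col-0 (circles) and 5-week ddcc (triangles), with bars at the means of 3. SOC1 is higher and FUL lower in every ddcc library than in every Col-0 library, and TSF and FUL are near 0 in met1-3, which was normalised apart and has no wild type of its age here.

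FT, the florigen gene, had 10.5, 6.09 and 15.5 normalised reads in the 3 Col-0 libraries and 13.2, 9.8 and 9.95 in ddcc. The groups overlapped, with both the lowest and the highest library in Col-0. The difference was not detectable at this depth of 7 to 19 reads a library (log2 fold change 0.11 ± 0.40 SE, 95% interval -0.78 to 1.0, adjusted p = 0.87). Its sign turned when total reads were the only scaling and when Col-0 replicate 2 or ddcc replicate 1 was left out.

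TSF, the FT relative that acts in the same step, had 10.5, 33 and 31 normalised reads in Col-0 and 7.2, 9.8 and 9.95 in ddcc. Every ddcc library was below every Col-0 library, but Col-0 replicate 1 lay close to the ddcc values and far from the other Col-0 libraries. The difference did not pass either rule (log2 fold change -1.23 ± 0.44 SE, 95% interval -2.21 to -0.25, adjusted p = 0.072). Without Col-0 replicate 1 TSF was called (log2 fold change -1.74, adjusted p = 0.0057), and over all alternatives its adjusted p ran from 0.0057 to 0.25.

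CO, the B-box activator of FT, had 11.5, 17.4 and 15.5 normalised reads in Col-0 and 8.39, 9.8 and 3.32 in ddcc. The groups did not overlap, and ddcc replicate 3 was the lowest with 3 reads. Neither rule was passed (log2 fold change -1.04 ± 0.43 SE, 95% interval -2.0 to -0.08, adjusted p = 0.11). Without ddcc replicate 3 the log2 fold change of CO was -0.63 (adjusted p = 0.25), and over all alternatives its adjusted p ran from 0.027 to 0.29. CO shares its locus with 2 genes on the other strand, of which 1 is listed with up to 22 reads in a library, and the sources do not say whether strand was used in counting, so the reads of CO and its neighbour may be mixed.

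SOC1, the MADS integrator that collects the photoperiod, age and cold inputs, had the largest read numbers of the 10 genes. It had 140.5, 110.4 and 140.2 normalised reads in Col-0 (130.4 ± 17.3, SD, n = 3) and 258, 246 and 200.1 in ddcc (235 ± 30.5). All 3 ddcc libraries were higher than all 3 Col-0 libraries. SOC1 was 1.79-fold higher in ddcc (log2 fold change 0.84 ± 0.15 SE, 95% interval 0.51 to 1.17, adjusted p = 0.0036), under the fold threshold. It passed the wider rule in all 6 fits that left out a library.

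FUL, the AP1-related MADS gene that acts beside SOC1 at the apex and in leaves, went the other way. It had 90.1, 93.9 and 103 normalised reads in Col-0 (95.6 ± 6.46) and 62.4, 61.7 and 61.9 in ddcc (62 ± 0.326), where the libraries were nearly equal. No library of one group reached the other. FUL was lower in ddcc (log2 fold change -0.61 ± 0.14 SE, 95% interval -0.93 to -0.3, adjusted p = 0.014), again under the fold threshold. It passed the wider rule in 4 of the 6 fits that left out a library and not without Col-0 replicate 2 or Col-0 replicate 3 (adjusted p up to 0.053).

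AP1 and LFY, which mark the floral meristem itself, were at the edge of detection. AP1 had 1, 2 and 6 reads in the Col-0 libraries and 2, 1 and 3 in ddcc. LFY had 0, 2 and 6 reads in Col-0 and none in the 3 ddcc libraries, which allows up to 2.94 to 3.60 normalised reads in each. Both genes overlapped between the groups and both were highest in Col-0 replicate 3. An exact two-sided permutation test of the normalised reads gave p = 0.80 for AP1 and p = 0.40 for LFY, where 3 against 3 libraries cannot go below p = 0.10.

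Of the SPL genes, SPL3 and SPL4 did not pass either rule and SPL9 was too low for limma. SPL3, which encodes a small SPL protein, had 62.9, 48.7 and 53 normalised reads in Col-0 and 69.6, 61.7 and 61.9 in ddcc, with overlap (log2 fold change 0.23 ± 0.17 SE, 95% interval -0.15 to 0.61, adjusted p = 0.35). The sign of SPL3 turned with total reads as the only scaling. SPL4, its close relative, had 43, 45.2 and 67.7 in Col-0 and 80.4, 63.7 and 109 in ddcc. The highest Col-0 library of SPL4 lay above the lowest ddcc library (log2 fold change 0.69 ± 0.24 SE, 95% interval 0.14 to 1.23, adjusted p = 0.072). Without Col-0 replicate 3, its highest Col-0 library, SPL4 passed the wider rule (0.89, adjusted p = 0.033), and over all alternatives its adjusted p ran from 0.019 to 0.26. SPL9, a longer SPL protein that acts on leaf phase and miR172, had 1.05, 7.82 and 7.34 in Col-0 and 7.2, 3.92 and 9.95 in ddcc, between 1 and 9 reads a library, and the groups overlapped (exact two-sided permutation test, p = 0.70).

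**Figure D2:**
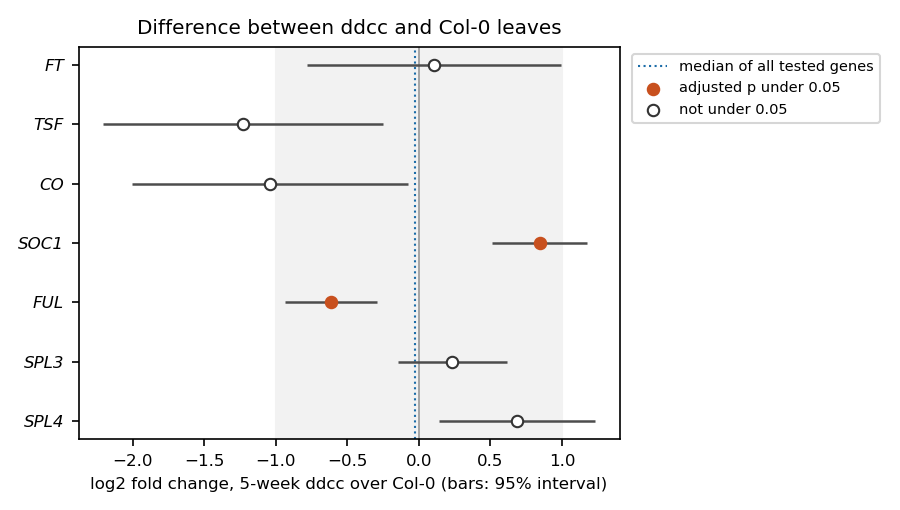
Log2 fold change of ddcc over Col-0 (x axis) for the 7 genes with enough reads, with 95% intervals from limma, filled where the adjusted p was under 0.05, and grey shading for changes of less than 1 in size. SOC1 (0.84) and FUL (-0.61) are filled and inside the shading, while the intervals of TSF (-2.21 to -0.25) and CO (-2.0 to -0.08) are wide.

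Col-0 replicate 1 was the lowest of the 3 Col-0 libraries for 7 of the 10 genes, and how many of all genes were lowest there was not counted. The summed level of 6 shoot meristem markers was also lowest there (83.3 against 102 and 115 nuclear RPM), as was that of 10 flower organ identity markers (26.2 against 32.9 and 37.7), with the meristem gene STM at 23.1, 51.3 and 62.8 normalised reads in Col-0 and 55.2, 65.6 and 57.5 in ddcc. The stem cell genes WUS and CLV3 and the flower gene UFO had no read in any library. On the nuclear RPM scale the meristem sums overlapped between the groups, at 83.3 to 115 in Col-0 and 108 to 124 in ddcc. The flower sums did too, at 26.2 to 37.7 and 27.9 to 33.7. As normalised reads, the scale used for SOC1 and FUL, every ddcc meristem sum lay above every Col-0 one, while the flower sums overlapped. The 3 phloem companion cell markers, from the cells that make FT, summed to 396, 456 and 486 nuclear RPM in Col-0. They too were thus lowest in replicate 1, and in ddcc they summed to 385 to 456. SUC2 among them was higher in ddcc (log2 fold change 0.46, adjusted p = 0.014) and AHA3 lower (-0.32, adjusted p = 0.036). With total reads as the only scaling SUC2 shrank to 0.14 and did not pass (adjusted p = 0.42). SUC2 also did not pass without ddcc replicate 2 or ddcc replicate 3, and AHA3 did not pass in 4 of the fits that left out a library. The sum of 4 leaf mesophyll markers separated the groups, at 1859 to 2797 in Col-0 and 10711 to 11485 in ddcc, and all 4 genes (RBCS1A, LHCB1.3, LHCB1.1 and RBCS2B) were called higher, by 2.09 to 2.62 on the log2 scale, though genes of these families have near-identical copies that may share reads. Within Col-0 the mesophyll sum was highest in replicate 1 (2797 against 2072 and 1859). The part of these marker differences in the results for SOC1 and FUL was not tested.

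**Figure D3:**
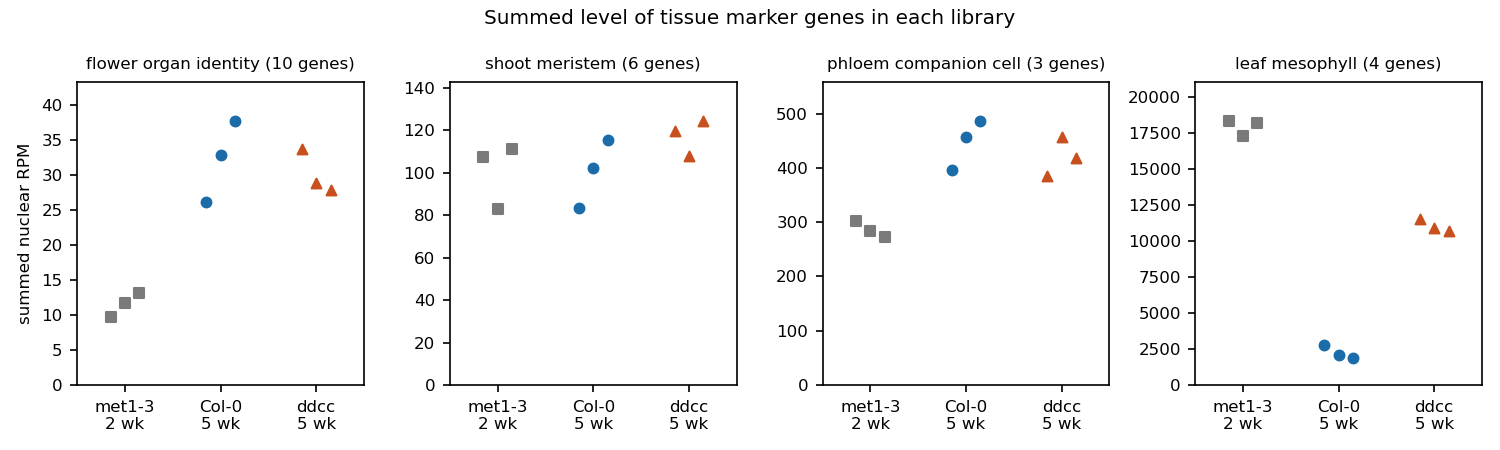
Summed nuclear RPM (y axis, from 0) of 4 lists of tissue markers in each library of the 3 groups. On this scale flower, meristem and companion cell sums overlap between Col-0 and ddcc, and the mesophyll sum is 1859 to 2797 in Col-0 against 10711 to 11485 in ddcc. As normalised reads the meristem sums do not overlap and are higher in ddcc.

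Upstream of FT, 5 photoperiod genes passed the wider rule, and which ones did depended on the scaling and on single libraries. Of 18 photoperiod genes 17 were tested and 0 called by limma (11 at an unadjusted p under 0.05, 0 called by limma-voom), with 3 higher and 2 lower by the wider rule (beside 13.0% and 8.32% of all tested genes) and a median log2 fold change of -0.07. The higher ones were COL2, a CO-like gene (0.69, adjusted p = 0.014), and the light receptors PHYB (0.48, 0.031) and CRY1 (0.34, 0.045). The lower ones were COP1 (-0.46, 0.018) and SPA1 (-0.38, 0.011), partners in the ubiquitin ligase that removes CO protein. COL9, which holds back CO, had the largest change of the list with COL2 but did not pass (-0.69, adjusted p = 0.25). With total reads as the only scaling the changes of COL2, PHYB and CRY1 shrank to 0.36, 0.15 and 0.01 and none of the 3 passed. On that scale 0 of 17 were higher and 8 lower, beside 6.97% and 37% of all tested genes. At an unadjusted p under 0.05, on the main scale, there were 6144 of all 17005 tested genes. COP1 did not pass in 4 and SPA1 in 1 of the fits that left out a library. Over all 14 alternatives CRY1 did not pass in 7, PHYB in 5 and COL2 in 3, and these too included fits that left out a library. FKF1, the photoperiod gene not tested, had 0, 0 and 1 reads in Col-0 and 1, 0 and 0 in ddcc. The methods do not give the hour of harvest, and its part in the levels of FT, CO and these genes was not tested.

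The 3 repressors of flowering that passed the wider rule, AP2, TOE3 and TEM1, were lower in ddcc. Of 18 repressors 13 were tested and 0 called (5 at an unadjusted p under 0.05, 0 called by limma-voom), with 0 higher and 3 lower by the wider rule (beside 13.0% and 8.32% of all tested genes) and a median of -0.27, beside -0.03. With total reads as the only scaling 0 were higher and 10 lower, beside 6.97% and 37% of all tested genes. At an unadjusted p under 0.05, on the main scale, there were 6144 of all 17005 tested genes. AP2 had 139, 196 and 183 normalised reads in Col-0 and 75.6, 91.1 and 113 in ddcc, without overlap (log2 fold change -0.89 ± 0.18 SE, adjusted p = 0.0085). TOE3, an AP2-like gene, was lower by a similar amount (-0.86, adjusted p = 0.019), but did not pass without Col-0 replicate 2 or ddcc replicate 2 (adjusted p up to 0.08). TEM1, which binds FT to repress it, was also lower (-0.71, adjusted p = 0.0063). TOE1 (-0.33, adjusted p = 0.099) and TEM2 (-0.27, adjusted p = 0.12) made up the 5 and did not pass. FLC, the repressor that vernalisation silences, had 0 to 3 reads in every one of the 9 libraries and was not tested. FTIP1, which helps FT leave the companion cells, was lower in ddcc (122.6, 124 and 142 against 67.2, 78.4 and 88.5 normalised reads, log2 fold change -0.73, adjusted p = 0.0084), and FD, the partner of FT at the apex, was not detectably different (-0.37, 95% interval -1.36 to 0.62, adjusted p = 0.58). These were the 2 tested of 7 florigen relatives and partners, of which 0 were called (1 at an unadjusted p under 0.05, 0 called by limma-voom).

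AGL42, a MADS gene of the SOC1 clade, was the 1 gene called in the flowering lists, which had 7, 17, 13, 2, 11 and 3 tested genes. Of all 17005 tested genes 3.90% were called higher and 1.16% lower, so 1 call in these lists does not mark them out. AGL42 had 29.4, 34.8 and 38.3 normalised reads in Col-0 and 110.3, 77.4 and 97.3 in ddcc, 2.72-fold higher (log2 fold change 1.44 ± 0.19 SE, 95% interval 1.008 to 1.88, adjusted p = 0.00084). Its direction was that of SOC1, and the groups did not overlap. AGL19, another MADS promoter of flowering, had 11.5, 19.996 and 17.9 in Col-0 and 4.8, 7.84 and 5.53 in ddcc and passed only the wider rule (-1.3, adjusted p = 0.034), and not in 4 of the fits that left out a library. AGL24, a partner of SOC1, did not pass (-0.25, adjusted p = 0.21). Of the 8 genes of this list 3 were tested, with a median of -0.25. Flower organ identity genes had 3 of 10 tested, shoot meristem genes 4 of 6 and companion cell genes 3 of 3, and 0 were called in each (1, 1 and 2 at an unadjusted p under 0.05, 0 called by limma-voom). SEP1, a flower organ gene, was the largest of them without passing (-0.87, adjusted p = 0.089), while SEP4 (0.17), STM (0.48) and CLV1 (0.34) had adjusted p of 0.45, 0.31 and 0.06. At an unadjusted p under 0.05 there were 6144 of all 17005 tested genes.

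**Figure D4:**
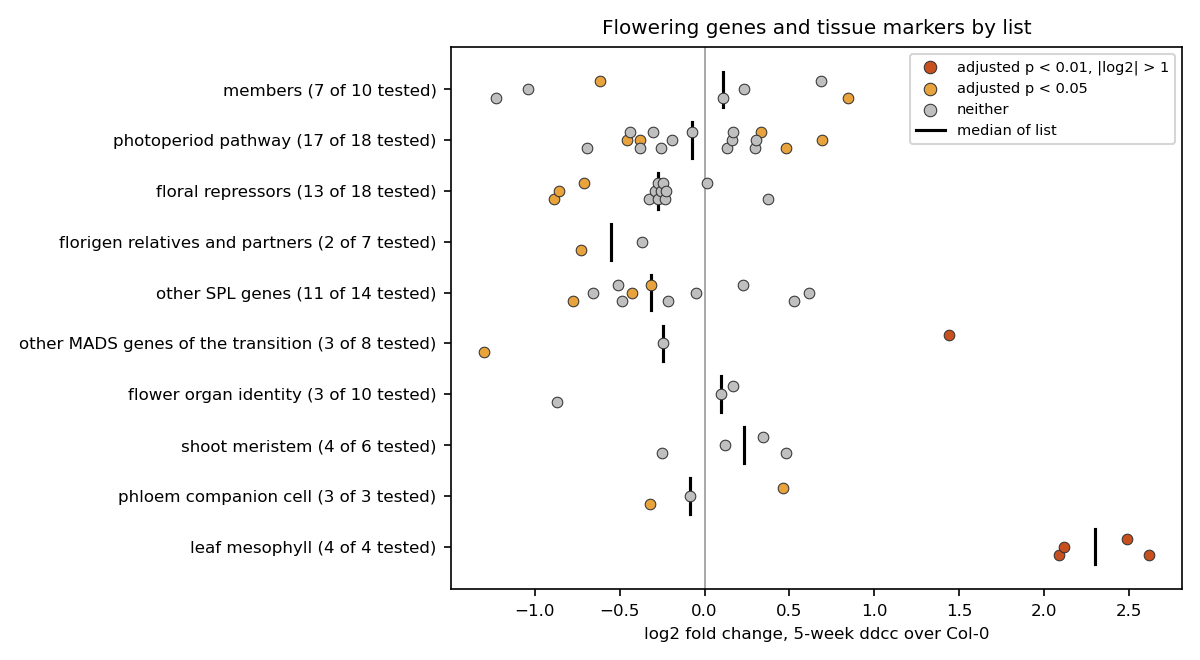
Log2 fold change of ddcc over Col-0 (x axis) for each tested gene of 10 lists (rows), with a black bar at the list's median and colour for the rule passed. AGL42 and the 4 mesophyll markers are the called genes, and the medians of the flowering lists lie between -0.55 and 0.11.

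In the rest of the SPL family 3 genes, SPL16, SPL2 and SPL14, passed the wider rule and were lower in ddcc. Of 14 other SPL genes 11 were tested and 0 called (5 at an unadjusted p under 0.05, 0 called by limma-voom), with 0 higher and 3 lower by the wider rule (beside 13.0% and 8.32% of all tested genes) and a median of -0.32. With total reads as the only scaling 0 were higher and 7 lower, beside 6.97% and 37% of all tested genes. At an unadjusted p under 0.05, on the main scale, there were 6144 of all 17005 tested genes. SPL16 had 318, 253 and 299 normalised reads in Col-0 and 177, 159.7 and 167 in ddcc, without overlap (log2 fold change -0.78 ± 0.12 SE, adjusted p = 0.0019). SPL2 (-0.43, adjusted p = 0.04), which holds a miR156 site, and SPL14 (-0.32, adjusted p = 0.023), which like SPL16 holds none, changed less. SPL2 did not pass in 5 and SPL14 in 3 of the 6 fits that left out a library. SPL10, with the largest change after SPL16 (-0.66, adjusted p = 0.091), and SPL11 (-0.49, adjusted p = 0.14) made up the 5 and did not pass. Taking SPL3, SPL4 and SPL9 in, 11 of 17 SPL genes held a miR156 site, 8 in the coding sequence and 3 in the 3′ UTR. SPL13A and SPL13B are near-identical copies, so their reads may be split. The 8 tested genes with a site ranged from -0.66 to 0.69, with a median of -0.10 that turned to 0.23 without SPL13A, a choice made after the values were seen. The 5 without a site ranged from -0.78 to 0.23 with a median of -0.21. SPL4 had the highest fold change of the genes with a site.

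**Figure D5:**
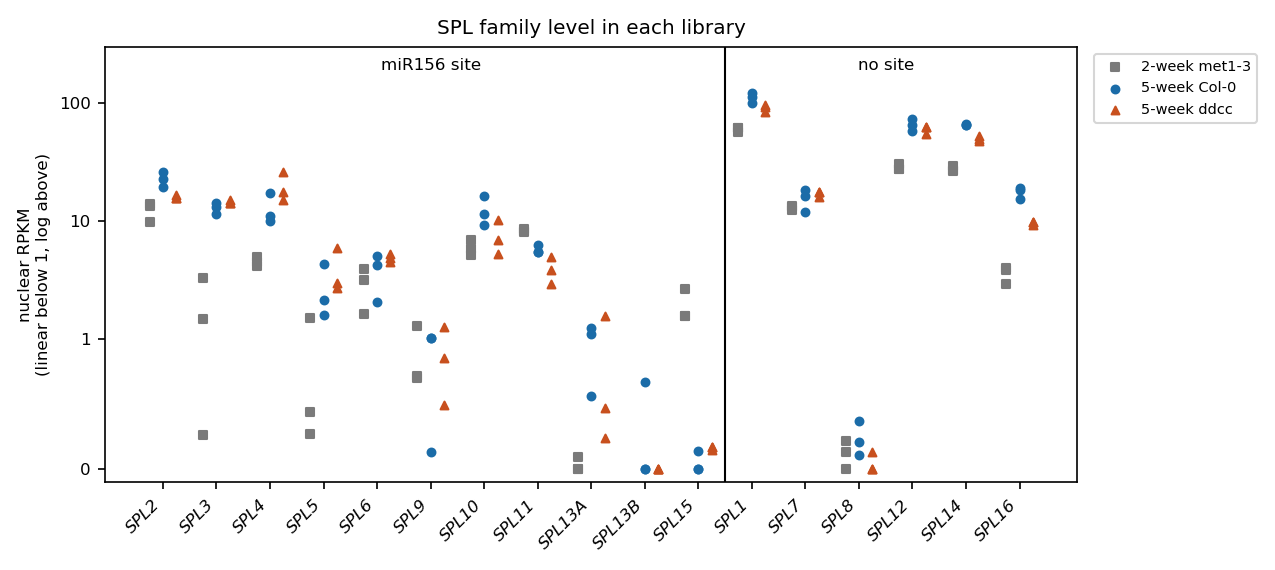
Nuclear RPKM (y axis, linear below 1 and logarithmic above) of the 17 SPL genes in each library of 2-week met1-3 (squares), 5-week Col-0 (circles) and 5-week ddcc (triangles), with a line between the 11 genes that hold a miR156 site and the 6 that do not. SPL1, SPL12 and SPL14, which hold no site, are the most abundant, and SPL3 and SPL4 are lower in met1-3 than in either 5-week group.

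The precursors of both microRNAs gave few reads. Of 15 MIR156 and MIR172 genes 6 were listed at 5 weeks and 1 was tested. That gene, MIR172a, had 22, 27.8 and 31 normalised reads in Col-0 and 42, 73.5 and 99.5 in ddcc, higher in all 3 ddcc libraries (log2 fold change 1.31 ± 0.30 SE, adjusted p = 0.014, 0.0022 to 0.060 over the alternatives), past the wider rule and not called. Its mature strand is shown with the seed in capitals, and with it the sites of the 5 AP2-like repressors that hold one, with bases counted as unpaired in capitals. The capital G shared by all 5 sites faces a U, a G:U pair that the count takes as unpaired.
miR172a: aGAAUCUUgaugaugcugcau
AP2: CtgcagcatcatcaGgattct
TOE3: TGgcagcatcatcaGgattct
TOE2: atgcagcatcatcaGgattct
TOE1: CAgcagcatcatcaGgattct
SMZ: TtgcagcatcatcaGgattcC
All 5 sites lay in the coding sequence (chr4:17403019-17403039 for AP2, chr5:26802175-26802195 for TOE3, chr5:24210889-24210909 for TOE2, chr2:12226233-12226253 for TOE1 and chr3:20373774-20373794 for SMZ), and 6 of 27562 genes (0.0218%) held such a site. TOE2 had the fewest unpaired bases, 1, and did not pass the wider rule (-0.24, 95% interval -0.65 to 0.16, adjusted p = 0.36). TOE1, with 3, did not pass it either, AP2 (2) and TOE3 (3) were lower, and SMZ (3) was too low to test. The best match of SNZ, also in the repressor list, had 4 unpaired bases by this count, past the limit of 3. SNZ did not pass the wider rule (-0.23, adjusted p = 0.56). Reads on a MIR gene count the precursor, not the mature microRNA. MIR156c had 4, 5 and 2 reads in Col-0, 9, 8 and 6 in ddcc and 37, 15 and 37 in met1-3.

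Per kb of transcript, the order of the 10 genes differed between the groups. In 5-week Col-0 the order was FUL (21.2 ± 2.44 nuclear RPKM), SOC1 (20.8 ± 2.98), SPL3 (13 ± 1.35), SPL4 (12.7 ± 3.95), TSF (7.19 ± 3.75), FT (2.73 ± 1.3) and CO (1.5 ± 0.344), then SPL9, AP1 and LFY under 1. FUL and SOC1 overlapped, as did SPL3 with SPL4, TSF with FT and FT with CO, while SOC1 with SPL3, SPL4 with TSF and CO with SPL9 stood apart. In ddcc SOC1 (35.5 ± 3.91) stood apart at the top, followed by SPL4 (19.5 ± 5.6), SPL3 (14.4 ± 0.46) and FUL (13 ± 0.408). FT (2.63 ± 0.357) and TSF (2.45 ± 0.499) followed and overlapped. In met1-3 SOC1 (9.45 ± 0.59) again stood apart at the top, with SPL4 (4.54 ± 0.419), FT (3.27 ± 1.78), CO (2.39 ± 0.265) and SPL3 (1.67 ± 1.51) next, each of these overlapping its neighbour, and SPL9, FUL, TSF, LFY and AP1 under 1.

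The 2-week met1-3 libraries have no wild type of the same age among the files used and were normalised apart, so genotype, age and tissue cannot be told apart and their levels are given without a test. On the nuclear RPM scale, FUL was at 1.03, 0.508 and 0.942 in met1-3, against 19.96, 21.8 and 25 in 5-week Col-0. SPL3 was at 1.45, 0.254 and 3.2 against 13.9, 11.3 and 12.9, and SPL4 at 4.76, 4.32 and 3.95 against 9.52, 10.5 and 16.5. SOC1 was at 12.8, 14 and 14.5 against 31.1, 25.6 and 34.2. In each of these genes every met1-3 library lay below every Col-0 library. How many of all genes separate these groups was not counted, so such separations only describe the genes named. TSF had 0, 1 and 0 reads in met1-3, LFY 0, 1 and 0 and AP1 none. CO ran the other way, with every met1-3 library (5.58, 4.82 and 6.03) above every Col-0 library (2.55, 4.03 and 3.77). FT (3.1, 4.57 and 1.32 in met1-3) and SPL9 (1.24, 1.27 and 2.26) overlapped the Col-0 libraries. Of the repressors, FWA, whose protein binds FT and which is silenced by CG methylation in wild type plants, had 1992, 1638 and 2921 reads in met1-3, against 0, 6 and 3 in Col-0 and 4, 2 and 2 in ddcc. The AP2-like repressor SMZ had 89, 77 and 95 reads in met1-3 and 9, 4 and 8 in Col-0, and SPL15, a close relative of SPL9, had 11, 15 and 12 and 0, 1 and 0. Repressors of the list went both ways. TEM1, TEM2, TOE3 and AP2 were lower in every met1-3 library than in every Col-0 library, on the nuclear RPM scale. TEM2, for example, was at 37.2, 28.9 and 35.6 against 169, 208 and 213. These repressors and SPL15 were all named after their values were seen.

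Over the 6 libraries of 5 weeks, the tested genes most like each of the 7 were taken by Pearson's r of log2 values, as a description over libraries that share the same 2 groups. For SOC1 they were NHL1 (r = 0.999) and AAE3 (r = 0.996), for FUL AT3G21650 (r = 0.999) and YSL2 (r = 0.999), for SPL3 PAE2 (r = 0.998) and EDL1 (r = 0.997) and for SPL4 AT3G61898 (r = 0.998) and IQD1 (r = 0.998). For TSF they were AT1G25480 (r = 0.999) and PAC (r = 0.995), for CO AT5G08600 (r = 0.997) and IQD5 (r = 0.996) and for FT ATCG00320 (r = 0.991) and ABCG33 (r = 0.983). The number of tested genes with r over 0.95 ran from 9 for FT to 415 for SOC1. None of the 10 genes was among the partners of another.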

How the data were processed

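The members and gene lists were chosen with earlier results of these data known. Per the labels and methods, RNA was prepared with the RNeasy and TruSeq kits, sequenced paired-end, trimmed (Fastp in the methods, Trimmomatic in the submitters' processing notes), aligned to TAIR10 with HISAT2, filtered for mapping quality and counted with HTSeq-count. Versions, annotation and strand setting are not given in the sources used here. Each deposited file holds log2 values, which the authors made with DESeq2 for each comparison apart by dividing reads by a size factor and adding 1. Whole reads were recovered from 100% of the values within 1e-06, and the size factors from the step of 1 read.

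Genes with 10 read equivalents in at least 3 libraries and 15 reads in total were tested on the deposited log2 values with limma 3.58.1 (R 4.3.3), 3 against 3 libraries, with a mean-variance trend and Benjamini-Hochberg adjustment over all 17005 tested genes. Fold changes are on the log2(value + 1) scale and understate those of low genes. The script was tested on simulated data, in which only genes with more reads than FT, TSF and CO were changed, and by more than any member. That test does not cover changes as small as those of the members or genes as low as these 3. Members under the filter were compared by an exact permutation test. Levels between genes were divided by the median length of the coding transcripts. Sites were searched in the transcript with the longest coding sequence, G:U pairs counted as unpaired. Depth was 10105057 to 13989374 reads, and floors cover counting error only. Named were all members, each called gene of a list and the 2 others with the largest change, and for a count of 5 or fewer the genes in it. These alternatives were tried: total reads or nuclear size factors, other filters, a pseudocount of 0.1, limma-voom with TMM, a replicate block, each library left out, and reads thinned to the smallest library.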

Additional observations from a re-analysis of the deposited data

How the results depend on the processing

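Of 93 member fold changes over 14 alternatives, 88 kept their direction and their side of the calling rule. FT turned to -0.19 and SPL3 to -0.090 with total reads as the only scaling, and FT ran from -0.21 to 0.40 over the fits that left out 1 library. TSF was called without Col-0 replicate 1 (-1.74), so the number of members called ran from 0 to 1 over those fits, and it stayed at 0 in the other alternatives. With an adjusted p under 0.05 and no fold threshold it was 2 for the members and 3634 over all tested genes, against 861 called. Leaving out 1 library gave 554 (without ddcc replicate 2) to 958 called genes. Total reads as the only scaling put TSF (adjusted p = 0.017) and CO (0.027) past the wider rule beside SOC1 and FUL. The cause of these changes was not tested.

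The groups share replicate numbers, but same-numbered libraries deviated together in 1 pair only (r = 0.213, 0.00085 and 0.035), so the numbers were not taken as pairs, and not every library correlated best with its own number. The fit with the replicate block called 0 members and 1017 genes, and TSF, SPL4, SOC1 and FUL passed the wider rule in it.

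At 7 to 19 reads a library the data could not separate differences in FT of the size of its interval, and AP1, LFY and SPL9 were too low to test. Thinning the reads to the smallest library left 5 members tested, and a minimum of 10 reads in every library left 4. Levels in met1-3 rest on few reads: when 1 library was left out, the mean ran from 4.48 to 11.1 normalised reads for SPL3 (7.86 over all 3), from 11.2 to 20.4 for FT (15.6) and from 0 to 0.68 for TSF and for LFY (0.453).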
